A study of Mus musculus with 2 samples.

Results

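The LIM-homeodomain genes encode transcription factors that carry a pair of LIM domains in front of a homeodomain. Their levels were compared between mouse ES cells and E10.5 forebrain by RNA-seq. The 10 genes described here, *Lhx1*, *Lhx2*, *Lhx3*, *Lhx4*, *Lhx5*, *Lhx6*, *Lhx8*, *Lhx9*, *Isl1* and *Lmx1b*, were chosen by their symbol alone, and all 10 were found among the 29311 genes listed for both samples. *Isl2* and *Lmx1a* complete this family of 12 genes and are given for comparison. The ES cells were of the wild type line E14, grown without feeder cells on gelatin in medium with serum and LIF, the cytokine that keeps them undifferentiated. The forebrain came from wild type B6CBAF1/J embryos at E10.5, for which the methods give RNA from single embryos and the labels RNA from a set number of cells. Each cell type is represented by 1 sample, so that no value below has a replicate check, and cell line, strain and extraction reagent (Trizol or Trizol LS) cannot be told apart from cell type.

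The homeodomain binds DNA at short AT-rich sites, whereas the LIM domains bind proteins, in particular the LIM domain-binding cofactors Ldb1 and Ldb2. A dimer of the cofactor bridges LIM-homeodomain proteins, and the LIM-only proteins, which lack a homeodomain, compete for the same cofactor. In the embryo these genes are known for assigning regional and neuronal identity, such as cortex and eye field by *Lhx2*, ventral telencephalic neurons by *Lhx6* and *Lhx8*, and motor and sensory neurons by *Isl1*.

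Most of the family falls into pairs of related genes, which can be read from the homeodomain itself. The stretch that encodes a part of the third helix, which lies in the major groove of DNA, is printed for the 10 genes in the order of their pairs. It covers 36 bases of the spliced NCBIM37 transcripts, and the capitals mark the 12 bases that encode the invariant Trp-Phe-Gln-Asn.
*Lhx1*: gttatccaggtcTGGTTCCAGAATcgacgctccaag
*Lhx5*: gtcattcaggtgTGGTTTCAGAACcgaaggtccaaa
*Lhx2*: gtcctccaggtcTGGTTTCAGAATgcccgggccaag
*Lhx9*: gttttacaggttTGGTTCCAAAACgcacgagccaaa
*Lhx3*: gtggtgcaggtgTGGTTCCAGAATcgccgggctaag
*Lhx4*: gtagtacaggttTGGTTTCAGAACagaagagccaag
*Lhx6*: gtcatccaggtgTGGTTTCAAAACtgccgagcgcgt
*Lhx8*: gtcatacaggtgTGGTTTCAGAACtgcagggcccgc
*Isl1*: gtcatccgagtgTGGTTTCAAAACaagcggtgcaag
*Lmx1b*: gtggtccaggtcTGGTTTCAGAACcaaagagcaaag
The same 4 residues are written with 5 different spellings in the 10 genes, the most frequent being TGGTTTCAGAAC, in 4 genes. The stretch lies at chr2:38215615-38224388 on the plus strand for *Lhx2* and at chr3:153974661-153979715 on the minus strand for *Lhx8*, and these spans include an intron. In all 8 *Lhx* genes an intron splits the stretch, whereas in *Isl1* (chr13:117093314-117093349, minus strand) and *Lmx1b* (chr2:33422405-33422440, minus strand) it lies within a single exon. Over the 180 bases of the homeodomain, the 6 pairs shared 74.4 to 83.3% of bases, with a median of 79.7%. The other 60 combinations shared 48.3 to 70%, with a median of 52.8%. *Lhx3* and *Lhx5* were the closest of these, at 70%.

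**Figure D1:**
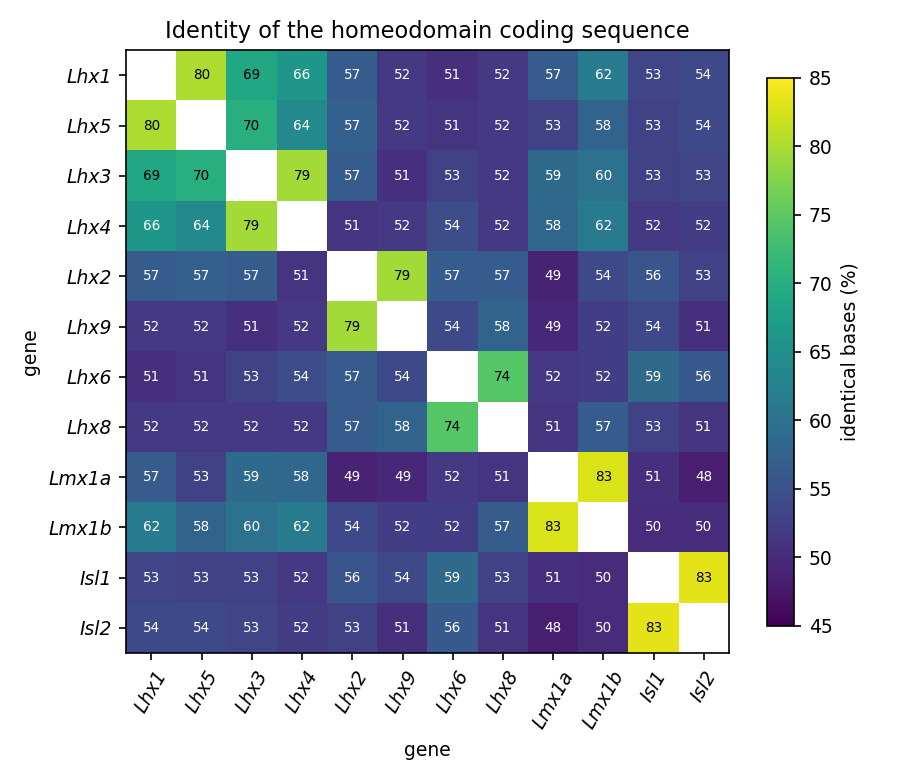
Each square gives the percentage of identical bases over the 180 bases that encode the homeodomain, for all combinations of the 12 LIM-homeodomain genes, ordered by pair on both axes. The 6 bright squares beside the diagonal are the related pairs (74.4 to 83.3%), and all others lie at or below 70%.

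This likeness raises the question whether reads can be assigned to a gene. Transcripts of different family genes shared exact stretches of at most 45 bases (*Lhx5* and *Lhx9*), and of at most 23 within a pair. No window of 50 bases on the same strand was therefore shared inside the family. Of all windows of 50 bases along the transcripts, *Lhx5* shared 1.13% with transcripts of other protein-coding genes, *Lmx1b* 0.63%, *Lhx6* 0.2% and *Lhx9* 0.04%. The shared windows of *Lhx5* were found in 159 other genes and those of *Lmx1b* in 86. The other 6 genes shared none, and with windows of 100 bases none of the 10 genes did. Both lengths were examined because the sources differ in the length of the reads.

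The authors deposited a value per gene and sample that they call RPKM, reads scaled for exonic length and sequencing depth. Low values, multiplied by exonic length, cluster at multiples of a fixed step, which was taken as the contribution of 1 read. By this step the genes hold 42781066 reads in ES cells, compared with 59767564 in E10.5 forebrain. The RPKM as deposited are 52.2 times (ES cells) and 49.0 times (E10.5 forebrain) a value per kb and 1000000 of these reads, so that levels of the 10 genes can be set beside each other and beside all genes, but not beside RPKM of other studies. A count of 3 reads equals an RPKM between 0.66 and 1.98 for these genes in ES cells, and between 0.44 and 1.33 in E10.5 forebrain. Ranges in parentheses after a level are 95% intervals from the exact Poisson distribution of the inferred reads, and those after a fold are exact binomial intervals. Both cover counting error only. For a gene without a read in ES cells, the fold is taken against 3 reads there. Such a fold carries no interval and leaves out the counting error of the forebrain value. Marker genes followed the labels of the samples: all 8 pluripotency genes were more than 2-fold higher in ES cells, among them *Pou5f1* at 11243.84 against 42.9, and all 8 forebrain genes in E10.5 forebrain, among them *Otx2* at 989.44 against 78.53. *Lhx2* is part of the latter list.

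As a group, the 10 genes were barely detected in ES cells and ranged from 3 to 3335 reads in E10.5 forebrain. Their RPKM summed to 21.62 in ES cells, from 70 reads. In E10.5 forebrain the sum was 1548.16, from 6009 reads, which is 71.6 times as high. *Lhx2* alone made up 56.6% of the forebrain sum, and without it the ratio was 31.1. The median RPKM of the 10 genes was 0.53 in ES cells, where the median of all listed genes was 48.94. In E10.5 forebrain it was 64.3, beside 62.37 for all genes. In a sample of mixed tissue, fewer cells that express a gene and less RNA per cell cannot be told apart.

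Differences between the samples were taken on log2(RPKM + 1), on which changes of low genes come out too small, and a difference of at least 1 (2-fold) was counted. On this scale 9 of the 10 genes were higher in E10.5 forebrain and none in ES cells. Of all 29311 genes, 25.8% were at least 2-fold higher in E10.5 forebrain and 23.3% in ES cells. The exception was *Lhx3*, and of the 9 genes *Lhx4* rests on 3 reads. The median difference of the 10 genes was 4.78, with a range of 0.75 to 9.78, and that of all genes was 0.01. With a limit of 4-fold, 8 of the 10 genes remained counted, where 14.4% of all genes were. Against reads alone, with no pseudocount and with a count of 0 set to 3 reads, the median of the 9 genes that allow a fold was 5.64 on the log2 scale.

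**Figure D2:**
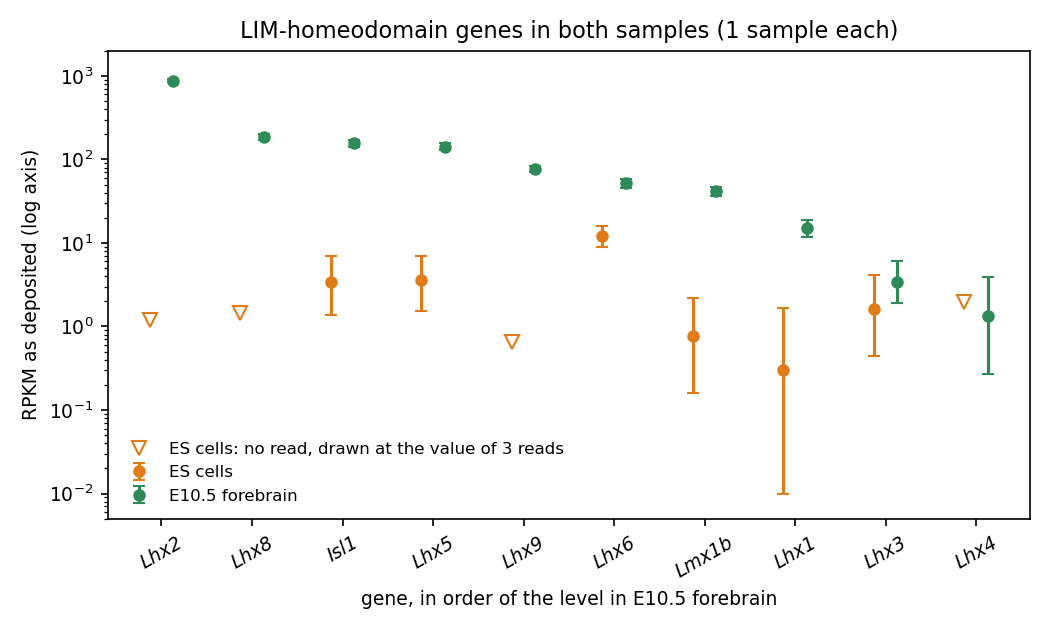
RPKM as deposited (log axis) of the 10 LIM-homeodomain genes in ES cells (orange) and E10.5 forebrain (green), 1 sample each, ordered by the forebrain level. Bars are 95% intervals from the exact Poisson distribution, and open triangles mark genes without a read in ES cells, drawn at the value of 3 reads (0.66 to 1.98). The intervals of *Lhx3* and *Lhx4* overlap between the samples, and those of the genes from *Lhx2* to *Lhx1* do not. The bars cover counting error only, and the share of all genes with separate intervals was not computed.

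*Lhx2* (ENSMUSG00000000247, chr2:38194801-38225253, plus strand, NCBIM37) and *Lhx9* (ENSMUSG00000019230, chr1:140721763-140745153, minus strand) form a pair with homeodomains 79.4% identical in bases. *Lhx2* is a selector of cortical identity and is needed for the eye, and *Lhx9* is known from the diencephalon and the developing gonad. In ES cells neither gene had a read, which allows an RPKM of up to 1.18 for *Lhx2* and 0.66 for *Lhx9* at 3 reads. In E10.5 forebrain *Lhx2* had an RPKM of 876.64 (847.11 to 906.88, 3335 reads), higher than that of 86.1% of listed genes (rank 4083). *Lhx9* had 76.84 (70.4 to 83.76, 520 reads), higher than that of 52.1% of genes. The pair thus shared the absence of reads in ES cells and differed in level in E10.5 forebrain, where *Lhx2* was 11.4-fold above *Lhx9* (10.4 to 12.5). This ratio, like those of the other pairs, also depends on the exonic lengths by which reads are divided. Joined over all annotated transcripts, these are 3117 bases for *Lhx2* and 5543 for *Lhx9*. Against 3 reads in ES cells, *Lhx2* was 746-fold higher in E10.5 forebrain and *Lhx9* 116-fold. The log2 differences were 9.78 and 6.28.

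*Lhx1* (ENSMUSG00000018698, chr11:84331479-84338923, minus strand) and *Lhx5* (ENSMUSG00000029595, chr5:120881895-120891466, plus strand) form the pair related to the LIM gene of the gastrula organizer. *Lhx1* is required in early tissues for the head to form, and *Lhx5* acts in hippocampal development and in the differentiation of Cajal-Retzius cells. *Lhx1* had an RPKM of 0.3 (0.01 to 1.65) in ES cells, from a single read, and of 15.01 (11.73 to 18.69, 75 reads) in E10.5 forebrain. *Lhx5* had 3.57 (1.54 to 7.03, 8 reads) in ES cells against 141.81 (129.45 to 155.31, 474 reads) in E10.5 forebrain. Both genes were low in ES cells and higher in E10.5 forebrain, with log2 differences of 3.62 for *Lhx1* and 4.97 for *Lhx5*. *Lhx5* differed 39.7-fold (20 to 92.6) between the samples. For *Lhx1* the fold of 50 has an interval from 8.76 to 2010, since it rests on 1 read in ES cells. Within E10.5 forebrain *Lhx5* lay 9.45-fold above *Lhx1* (7.45 to 12.3).

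*Lhx6* (ENSMUSG00000026890, chr2:35937470-35960928, minus strand) and *Lhx8* (ENSMUSG00000028201, chr3:153969260-153993615, minus strand) mark the medial ganglionic eminence, the ventral telencephalic source of cortical interneurons (*Lhx6*) and of basal forebrain cholinergic neurons (*Lhx8*). Both are also known from the mesenchyme of the first pharyngeal arch. *Lhx6* had an RPKM of 11.98 (8.89 to 16.1, 47 reads) in ES cells and of 51.75 (45.99 to 57.89, 299 reads) in E10.5 forebrain. *Lhx8* had no read in ES cells, which allows up to 1.45 at 3 reads, and 184.86 (169.86 to 200.58, 568 reads) in E10.5 forebrain. The order of the pair was opposite in the samples: *Lhx6* was the higher in ES cells, and *Lhx8* was 3.57-fold above it in E10.5 forebrain (3.1 to 4.13). *Lhx6* was 4.32-fold higher in E10.5 forebrain than in ES cells (3.13 to 5.94), a log2 difference of 2.02. *Lhx8* was 127-fold higher against 3 reads in ES cells, and its log2 difference was 7.54. Inferred reads of *Lhx6* in ES cells came to 46.51 before rounding, a value between whole reads.

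*Lhx3* (ENSMUSG00000026934, chr2:26055732-26063769, minus strand) and *Lhx4* (ENSMUSG00000026468, chr1:157548827-157589157, minus strand) act together in the pituitary primordium and in spinal motor neurons. *Lhx3* had an RPKM of 1.63 (0.44 to 4.16, 4 reads) in ES cells against 3.41 (1.89 to 6.06, 13 reads) in E10.5 forebrain. *Lhx4* had no read in ES cells, which allows up to 1.98, and 1.33 (0.27 to 3.89, 3 reads) in E10.5 forebrain. These were the lowest of the 10 genes in E10.5 forebrain, above 23.4% and 17.1% of listed genes. For *Lhx3* the ratio of 2.09 has an interval of 0.674 to 9.18, and the log2 difference was 0.75, so that a difference was not detectable at this depth. No fold is given for *Lhx4*, whose counts lie at or below 3 reads in both samples. Its log2 difference of 1.22 passed the 2-fold limit on these 3 reads alone.

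*Isl1* (ENSMUSG00000042258, chr13:117088478-117099896, minus strand) is known as a gene of motor and sensory neurons, of striatal cholinergic neurons and of heart progenitors. It had an RPKM of 3.38 (1.36 to 6.97, 7 reads) in ES cells against 155.16 (141.45 to 169.58, 478 reads) in E10.5 forebrain. This is a 45.9-fold difference (22.1 to 115), or 5.16 on the log2 scale. Its relative *Isl2* (ENSMUSG00000032318, chr9:55386479-55393987, plus strand), a gene of motor neuron and retinal ganglion cell subtypes, had no read in ES cells and 44.63 (36.83 to 53.2, 119 reads) in E10.5 forebrain. Against 3 reads in ES cells, *Isl2* was 26.7-fold higher in E10.5 forebrain, where *Isl1* lay 3.48-fold above it (2.85 to 4.3).

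*Lmx1b* (ENSMUSG00000038765, chr2:33416485-33496031, minus strand) specifies the dorsal limb and acts in midbrain dopaminergic and hindbrain serotonergic neurons and in the mesenchyme around the eye. It had an RPKM of 0.76 (0.16 to 2.21, 3 reads) in ES cells against 41.35 (36.26 to 46.8, 244 reads) in E10.5 forebrain, a 54.4-fold difference (18.5 to 267) and 4.59 on the log2 scale. *Lmx1a* (ENSMUSG00000026686, chr1:169619370-169778872, plus strand), a gene of the roof plate, the cortical hem and the midbrain floor plate, had 1.08 (0.22 to 3.15, 3 reads) and 173.69 (161.16 to 186.79, 719 reads). Both members of the pair had 3 reads in ES cells. Within E10.5 forebrain *Lmx1a* lay 4.2-fold above *Lmx1b* (3.63 to 4.88). With *Isl2* and *Lmx1a* the summed RPKM of the 12 genes was 22.7 in ES cells against 1766.48 in E10.5 forebrain, a ratio of 77.8.

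Ordered by level, *Lhx6* came first in ES cells with 55.4% of the summed RPKM, and its interval did not overlap that of *Lhx5*, the next gene with 16.5%. *Isl1* (15.6%), *Lhx3* (7.5%), *Lmx1b* (3.5%) and *Lhx1* (1.4%) followed, and neighbours in this order from *Lhx5* downwards could not be told apart by counting. At least 3 reads were found for 5 of the 10 genes in ES cells. A value above 0 was found there for 6 of the 10, and for 26646 of all 29311 listed genes. All 10 had a value above 0 in E10.5 forebrain, as did 27009 of the listed genes. Genes at 0 in both samples are not listed, and the share of all genes with at least 3 reads was not computed. In E10.5 forebrain all 10 genes had at least 3 reads, in the order *Lhx2*, *Lhx8*, *Isl1*, *Lhx5*, *Lhx9*, *Lhx6*, *Lmx1b*, *Lhx1*, *Lhx3* and *Lhx4*. *Lhx8* held 11.9% of this sum, *Isl1* 10% and *Lhx5* 9.2%. Here the intervals of neighbours overlapped for *Isl1* and *Lhx5*, for *Lhx6* and *Lmx1b*, and for *Lhx3* and *Lhx4*, and were separate for the rest. Relative to all genes, *Lhx6* was the highest in ES cells, above 35.8% of them. In E10.5 forebrain *Lhx8*, *Isl1* and *Lhx5* lay above 62.7%, 60.4% and 59.2% of genes.

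**Figure D3:**
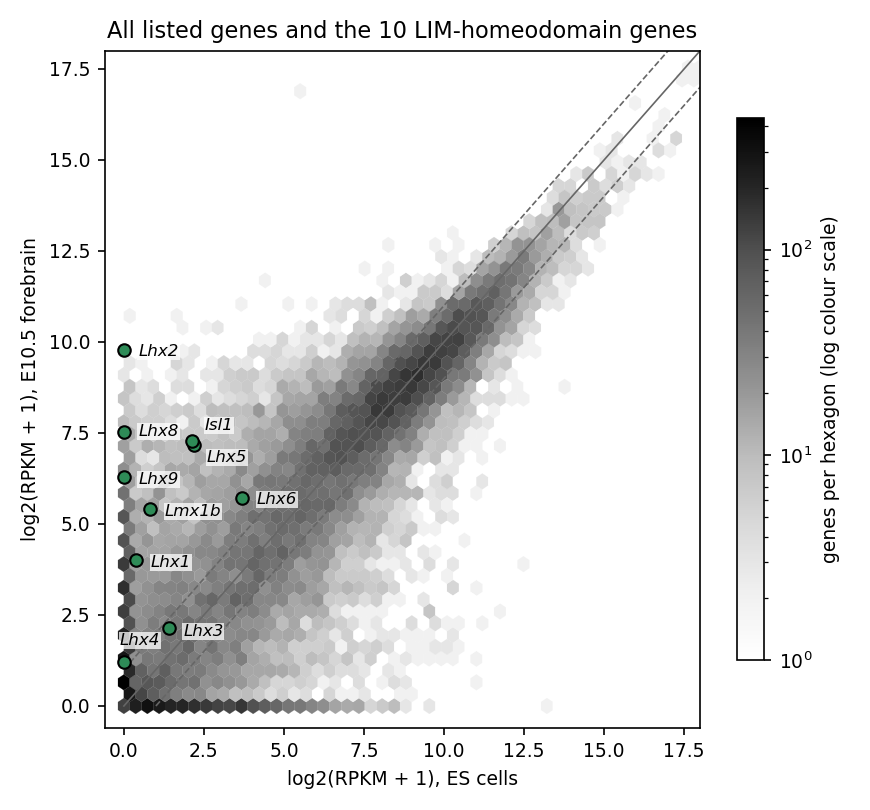
Level in ES cells (x axis) and in E10.5 forebrain (y axis), both as log2(RPKM + 1), of all 29311 listed genes as hexagons shaded by the number of genes (log colour scale), with the 10 LIM-homeodomain genes as green points. The solid line marks equal values and the dashed lines the 2-fold limit, beyond which 9 of the 10 genes lie on the forebrain side.

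Other protein-coding genes had nearly the same values in both samples as these. For each of the 9 genes with at least 10 reads in either sample, the 2 closest genes were taken by distance on both log2 scales, a likeness that rests on 2 samples. Among the closest to *Lhx2* was *AC122902.1* (distance 0.255). Those to *Lhx8* were *9430076C15Rik* (0.026) and *Pax3*, a gene of dorsal neural tube and neural crest, with 0 and 179.32 (0.044). For *Lhx9* they were *Acss3* (0.003) and *Fam162b* (0.032). *Arhgap31* was among the closest to both *Lhx5* (0.087) and *Isl1* (0.062), together with *Zfp697* for *Lhx5* (0.065) and *Uba7* for *Isl1* (0.046). *Lhx1* lay close to *Fgf9* (0.018) and *Sgip1* (0.022), *Lhx3* to *Akr1c21* (0.033) and *Cr2* (0.054), *Lhx6* to *A830005F24Rik* (0.073) and *Syt7* (0.081), and *Lmx1b* to *Arhgef6* (0.056) and *Syt16* (0.08). Of the distances given, that to *Lhx2*, the highest of these genes in E10.5 forebrain, was the largest.

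The cofactors through which these proteins act followed several patterns. *Ldb1*, the cofactor bound by the LIM domains, had an RPKM of 1305.88 (1264.7 to 1347.73) in ES cells, against 1869.76 (1829.5 to 1910.78) in E10.5 forebrain, a 1.43-fold difference (1.38 to 1.49) that did not reach the 2-fold limit. Its relative *Ldb2* had a single read in ES cells, with 0.46 (0.01 to 2.59), and 210.38 (194.86 to 226.93) in E10.5 forebrain, a log2 difference of 7.18. *Ldb1* was therefore present in both samples at levels above 89.3% and 93.6% of genes, whereas *Ldb2* rested on 1 read in ES cells. The summed RPKM of the 10 LIM-homeodomain genes corresponded to 0.017 times the RPKM of *Ldb1* in ES cells and to 0.828 times in E10.5 forebrain.

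The single-stranded DNA-binding proteins, which bind Ldb proteins and stabilize them, also differed among themselves. *Ssbp2* had an RPKM of 8.2 in ES cells against 290.2 in E10.5 forebrain, 35.4-fold apart (27.2 to 47.8), and *Ssbp3* had 131.52 and 999.8, 7.6-fold apart (7.05 to 8.22). *Ssbp4* went the other way, with 815.02 in ES cells against 402.6 in E10.5 forebrain, a log2 difference of -1.02 that became -0.74, below the limit, when scaled to the summed RPKM of each sample. Together the 3 genes had 954.74 and 1692.6, a ratio of 1.77. *Rlim*, a ubiquitin ligase that targets Ldb proteins, had 1811.11 in ES cells against 1222.62 in E10.5 forebrain, a log2 difference of -0.57. Of the 6 cofactor genes, 3 were thus counted as higher in E10.5 forebrain and 1 in ES cells.

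All 4 LIM-only genes were higher in E10.5 forebrain. *Lmo3* had 0.24 in ES cells, from a single read, and 154.77 in E10.5 forebrain, a log2 difference of 6.97. *Lmo1* had 10.26 and 516.62 (5.52), *Lmo2*, which is also a gene of blood progenitors and endothelium, had 24.8 and 468.54 (4.19), and *Lmo4* had 145.8 and 760.05 (2.37). Unlike most LIM-homeodomain genes, *Lmo4* and *Lmo2* were thus well detected in ES cells, from 393 and 44 reads. Their sum over the 4 genes was 181.1 in ES cells against 1899.98 in E10.5 forebrain, or 0.139 and 1.016 times the RPKM of *Ldb1*.

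**Figure D4:**
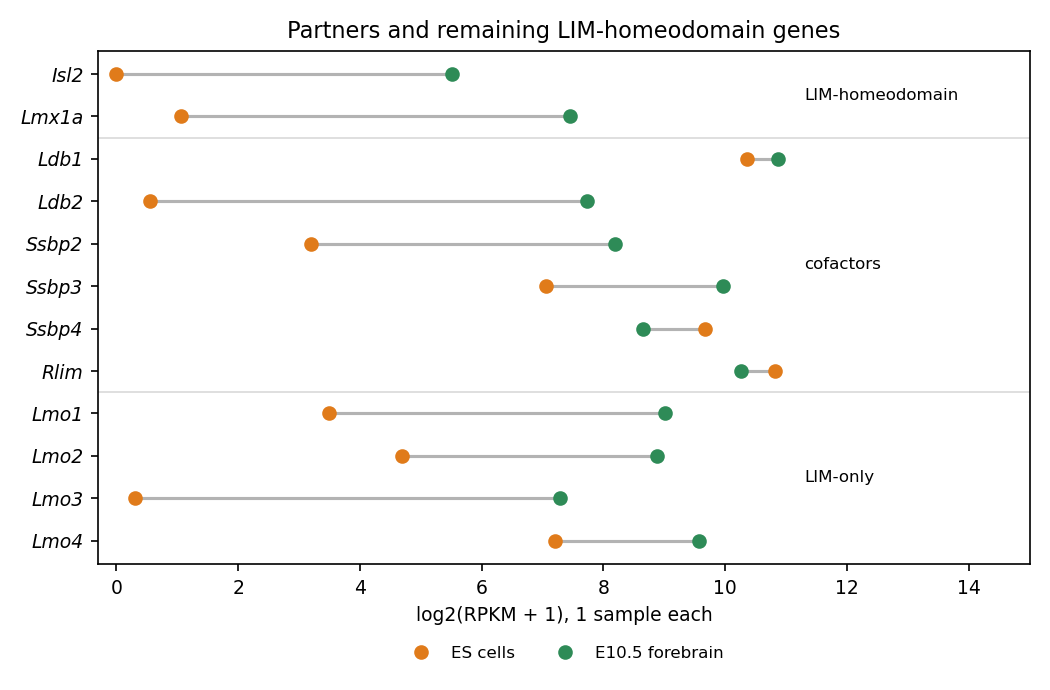
Level as log2(RPKM + 1) on the x axis in ES cells (orange) and E10.5 forebrain (green), 1 sample each, of the remaining LIM-homeodomain genes, the cofactors and the LIM-only genes, with a grey line joining the values of each gene. *Ldb1* and *Rlim* have close values in both samples (log2 differences of 0.52 and -0.57), *Ssbp4* lies further right in ES cells (-1.02), and the lines of the other genes extend towards E10.5 forebrain.

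Transcripts that lie next to these genes were examined within 10 kb. A non-coding transcript was found beside *Lhx1*, within *Lhx2* and beside *Lmx1b*, in each case on the opposite strand, and none of them had a read in ES cells. *1500016L03Rik* (ENSMUSG00000087211, chr11:84339162-84349333) starts 238 bases from *Lhx1* and had an RPKM of 15.49 (8.12 to 26.09, 13 reads) in E10.5 forebrain, close to the 15.01 of *Lhx1*. *Gm13584* (ENSMUSG00000087539, chr2:38215100-38219500) lies with its whole span of 4401 bases inside *Lhx2* and had 95.09 (74.14 to 120.17, 70 reads). *C130021I20Rik* (ENSMUSG00000052951, chr2:33496713-33501869) starts 681 bases from *Lmx1b* and had 112.12 (103.1 to 121.78, 566 reads), above the 41.35 of *Lmx1b*. Against 3 reads in ES cells, they were 2.95-fold, 15.7-fold and 127-fold higher in E10.5 forebrain, respectively. For *1500016L03Rik* the lower end of the forebrain interval (8.12) lies close to the upper end of that in ES cells (6.45). The exons of these non-coding transcripts overlap none of the LIM-homeodomain exons. The libraries are strand-specific, but whether strand was used in counting is not given in the sources used here.

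Of the 4 protein-coding neighbours, *Morn5* alone passed the 2-fold limit on the RPKM as deposited, on few reads. *Aatf*, 4454 bases from *Lhx1*, had an RPKM of 1803.64 in ES cells against 1054.2 in E10.5 forebrain, and *Qsox2*, 875 bases from *Lhx3*, had 432.27 and 372.49. Their log2 differences were -0.77 and -0.21, and that of *Qsox2* turned to 0.06 when scaled to the summed RPKM. *2310009B15Rik*, 3402 bases from *Lhx9*, had 91.23 and 175.49 (0.94, or 1.21 with that scaling). *Morn5*, 2231 bases from *Lhx6*, had 1 read in ES cells, compared with 4 in E10.5 forebrain. *Lhx4*, *Lhx5*, *Lhx8* and *Isl1* have no listed gene within 10 kb.

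The bases in front of the starts of the 10 genes were examined as well. RefSeq (GRCm38.p6) gave 13 promoters for 9 of the 10 genes, and *Lhx5* had none in the table. In the 250 bases before the start, the median GC content was 64.8% and the median number of CG dinucleotides 17, beside 52.4% and 6 over all 32851 promoters. *Isl1* had the most CG dinucleotides (33), and *Lhx8* and *Lhx9* the fewest (4 each). The promoters of *Lhx2* (from the upstream of its 2 starts), *Lhx1* and *Lhx8* are shown from 5′ to 3′ as examples from both ends of this range, with CG in capitals.
*Lhx2*: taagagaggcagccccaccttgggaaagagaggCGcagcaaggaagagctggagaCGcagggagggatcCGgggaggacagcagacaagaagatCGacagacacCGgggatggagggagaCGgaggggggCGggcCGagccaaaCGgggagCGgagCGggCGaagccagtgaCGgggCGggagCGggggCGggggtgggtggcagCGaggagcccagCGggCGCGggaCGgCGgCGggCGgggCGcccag
*Lhx1*: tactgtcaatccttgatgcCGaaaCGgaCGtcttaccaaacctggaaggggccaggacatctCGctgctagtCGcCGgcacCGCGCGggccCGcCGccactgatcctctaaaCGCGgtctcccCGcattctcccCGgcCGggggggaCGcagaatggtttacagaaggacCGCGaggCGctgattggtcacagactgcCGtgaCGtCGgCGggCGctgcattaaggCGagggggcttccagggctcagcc
*Lhx8*: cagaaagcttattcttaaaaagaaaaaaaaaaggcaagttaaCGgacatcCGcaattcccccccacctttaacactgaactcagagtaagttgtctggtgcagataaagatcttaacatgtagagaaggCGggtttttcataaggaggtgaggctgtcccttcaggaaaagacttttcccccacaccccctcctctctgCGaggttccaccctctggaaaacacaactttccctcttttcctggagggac
They lie at chr2:38339031-38339280 on the plus strand, chr11:84525535-84525784 on the minus strand and chr3:154330561-154330810 on the minus strand, and hold 25, 26 and 4 CG dinucleotides with a GC content of 72.8%, 64.8% and 46.0%. *Lhx2* and *Lhx8*, both without a read in ES cells and the highest of the 10 genes in E10.5 forebrain, lie towards different ends of this range. A link between these bases and the levels was not tested. The homeodomain motif TAATTA, which reads the same on both strands, was in none of the 13 promoters and in 1590 of all promoters (4.84%). Its absence concerns these 250 bases only and, with so low a share among all promoters, does not set the 13 promoters apart.

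Since most of these genes are also active outside the forebrain proper, markers of tissues that a dissection could include were set beside them. In the list of the medial ganglionic eminence and basal forebrain, set beside *Lhx6* and *Lhx8*, 7 of 9 listed genes were higher in E10.5 forebrain, with *Dlx1* at 255.62 and *Nkx2-1* at 85.03. The sum of this list was 473.67 in ES cells, of which *Gbx2* made 459.98, and 701.4 in E10.5 forebrain. Among thalamic and diencephalic genes, set beside *Lhx9* and *Lhx5*, 7 of 8 were higher in E10.5 forebrain, led by *Irx3* at 337.48 and *Shh* at 164.91, and the sum went from 496.87 to 998.39. *Gbx2* is in both lists and was the gene higher in ES cells in each.

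Beside *Isl1*, the list of motor neurons and hindbrain had 3 of 6 listed genes higher in E10.5 forebrain, with sums of 103.67 and 378.38. The motor neuron gene *Mnx1* had no read in E10.5 forebrain and only 3 in ES cells, whereas *Olig2* had an RPKM of 197.97 in E10.5 forebrain. *Phox2a* made 90.57 of the sum in ES cells and had 143.51 in E10.5 forebrain. Of the cranial sensory ganglion genes 3 of 6 were higher in E10.5 forebrain, with sums of 183.55 and 992.8, led by *Eya2* at 457.55. *Prph* made 129.29 of the former sum and had 8.56 in E10.5 forebrain. The sensory neuron gene *Pou4f1* had 39.86 in ES cells against 43.93 in E10.5 forebrain. Beside *Lhx3* and *Lhx4*, 4 of 6 pituitary genes were higher in E10.5 forebrain, with sums of 56.47 and 186.36. *Pou1f1*, the determinant of later pituitary cell types, had no read there and 1 in ES cells.

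Beside *Lmx1b* and *Lmx1a*, 5 of 6 genes of midbrain and isthmus were higher in E10.5 forebrain, but the sums were low, at 46.89 and 136.05, and *Fgf8* made 83.73 of the latter. *En2* had 44.35 in ES cells, most of that sum, and 24.74 in E10.5 forebrain, a log2 difference of -0.82. *En1* had 8.03, *Wnt1* 7.19 and *Pax2* 3.39 in E10.5 forebrain. Of the roof plate and cortical hem genes, 5 of 6 were higher there, with sums of 30.1 and 1891.24, led by *Msx1* at 1491.72 and *Wnt8b* at 262.52. Of these 5 genes, *Ttr* rests on only 2 reads in E10.5 forebrain and none in ES cells. Head mesenchyme, where *Lmx1b*, *Lhx6* and *Lhx8* are active as well, is represented by 11 genes. Of these, 9 were higher in E10.5 forebrain, with sums of 259.02 and 6260.6, led by *Twist1* at 1556.07 and *Alx1* at 1448.49. *Foxd3*, a neural crest gene that ES cells also express, made 214.4 of the sum in ES cells and had 19.43 in E10.5 forebrain. Genes of blood and endothelium summed to 895.33 in ES cells against 797488.5 in E10.5 forebrain, most of it embryonic globin such as *Hbb-y* at 367633.15, with 6 of 7 genes higher there. *Pecam1*, the exception, had 551.14 in ES cells, against 316.51 in E10.5 forebrain. Forebrain identity genes went from 104.24 to 2829.74. Beside *Lhx2*, markers of these lists without a read in ES cells included *Nkx2-1*, *Dlx5*, *Olig2*, *Eya2*, *Pitx1*, *Wnt1*, *Pax2*, *Fgf8*, *Ttr*, *Shh* and *Dlx6*. The part of these tissues in the levels of the 10 genes was not tested.

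Of 7 genes of early neurons, 6 were higher in E10.5 forebrain, with *Tubb3* at 3318.34 against 795.19. Their sum was nevertheless larger in ES cells (7726.19 against 5675.04), since *Stmn2* had 6910.29 there. In ES cells the list of primitive streak and endoderm summed to 1229.0, against 401.0 in E10.5 forebrain, and 1112.09 of it came from *T*, the gene of early mesoderm. Of its 8 listed genes 5 were higher in E10.5 forebrain and 3 in ES cells. The pluripotency genes summed to 41398.74 in ES cells against 161.83 in E10.5 forebrain.

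**Figure D5:**
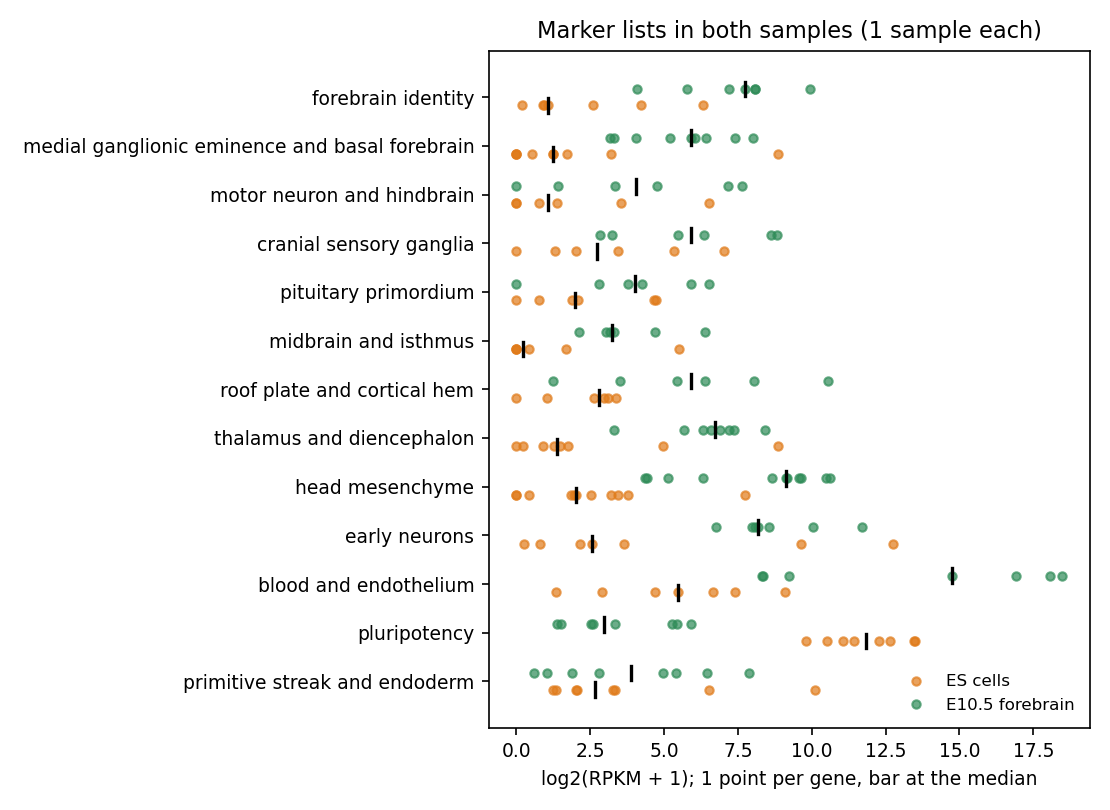
Level as log2(RPKM + 1) on the x axis of the genes of 13 marker lists. ES cells are orange and E10.5 forebrain is green, 1 sample each. Each point is 1 gene, and a black bar marks the median of each list and sample. *Lhx2* is not drawn and is left out of the median of the forebrain identity list. In E10.5 forebrain the head mesenchyme list sums to 6260.6 RPKM and the midbrain and isthmus list to 136.05, and the pluripotency list is the one with all 8 genes higher in ES cells.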

How the data were processed

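After removal of rRNAs, total RNA (1 sample of E14 ES cells, 1 of E10.5 forebrain) was made into strand-specific single-end libraries. The paper gives the RNA-seq pipeline of HTSstation and NCBIM37 (mm9), and the submitters' processing notes name Bowtie 0.12.7. The authors deposited 1 RPKM per gene and sample, without counts or total depth. Reads are 50 bp long by the paper's methods and 100 bp by the labels. Genes at 0 in both samples are not listed.

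Gene identifiers, coordinates and exonic lengths were matched to GENCODE vM1, and all 29311 coordinates were identical. The step of 1 read was estimated on genes of at most 2500 exonic bp. It was 1.221 per kb for ES cells, compared with 0.8193 for E10.5 forebrain. Of low values, 59.8% of 6560 and 61.4% of 6970 lay within 0.05 of a whole number of reads. For the 10 genes this was so for 5 of 6 values above 0 in ES cells against 1 of 10 in E10.5 forebrain, and reads were therefore rounded. The step was recovered on simulated data, in which more of the values lay at whole reads than here. Values as scattered as these were not simulated. Differences are log2(RPKM + 1), with a limit of 2-fold. Without replicates no test was made. A count of 0 was bounded by 3 reads.

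The genes and lists were chosen with earlier results of these data known. The named genes are the 10 genes, their relatives, cofactors and LIM-only genes, the 2 nearest genes per gene, listed genes within 10 kb, and up to 3 genes per marker list (those with the highest RPKM) with any at 0. *Pou4f1* and *En1* were named as defining markers after their values were seen. Some genes that meet this rule are not reported here. *Chat*, *Slc18a3*, *Drg11*, *Tbx19* and *Cer1*, among others of these lists, were not found by these symbols among the listed genes. Other symbols were not searched, so that their absence does not show a level of 0. Homeodomain sequences came from NCBIM37 transcripts and promoters from RefSeq. Alternatives changed the pseudocount, the scaling, the limit and the minimum of reads. Calculations were made in Python 3.11.15 with pandas 2.3.3, numpy 2.4.6, Biopython 1.88, scipy 1.17.1 and matplotlib 3.10.9.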

Additional observations from a re-analysis of the deposited data

How the results depend on the processing

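Depth limits the values in ES cells, where 1 of the 10 genes (*Lhx6*) had at least 10 reads, against 5 with at least 3. Of 50 log2 differences of single genes recomputed with other pseudocounts or scalings, 22 fell outside the counting interval, and that of *Lhx2* ranged from 4.24 to 13.1 and that of *Lhx1* from 0.38 to 5.24. Of 33 alternatives for the counts, the median and the summed ratio, 28 stayed within 1.5 times the count or within a range from counting error. Some of them could not move. Since all 10 genes had the higher RPKM in E10.5 forebrain, no pseudocount, limit or minimum of reads could count a gene as higher in ES cells. Nor could a lower limit of reads change the detection of all 10 genes in E10.5 forebrain. A pseudocount of 5 lowered the median difference to 3.52. Reads per kb and 1000000 inferred reads, on which 1 is large beside the values, gave a median of 1.11 and left 5 genes past the 2-fold limit, where 11.5% of all genes were. With a pseudocount of 0.02 on that scale, chosen after the data were seen, the median was 4.84 and 9 genes were counted, where 27.1% of all genes were. Without *Lhx2* the summed ratio was 31.1. Scaling by the summed RPKM moved the median of all genes from 0.01 to 0.26 and that of the 10 genes to 5.0. By this scaling 9 genes passed the limit, where 30% of all genes were higher in E10.5 forebrain and 19.7% in ES cells. By that scaling 1 more gene was counted as higher in E10.5 forebrain in the lists of cranial ganglia, roof plate and head mesenchyme. No paired analysis was possible because each cell type has 1 sample.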
